A study of Homo sapiens with 6 samples.

Results

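The mitotic kinases and checkpoint genes described here are AURKA, AURKB, PLK1, TPX2, CDK1, CCNB1, BUB1, BUB1B, MAD2L1 and CDC20. These 10 genes were chosen by name, with earlier results of these data known. Their data are every listed promoter, typical enhancer or super-enhancer that names them and the peaks in those regions. Of the 10 genes, 9 were named in at least 1 list and BUB1 was not listed. They were set beside 20136 annotated protein-coding genes. The study carried out chromatin immunoprecipitation followed by sequencing (ChIP-seq) in CHP-134, a human neuroblastoma cell line, to ask which regions are bound by N-Myc, the transcription factor encoded by MYCN, and by JMJD6, a jumonji domain protein that acts on histones. The paper describes CHP-134 as having amplified MYCN and a gained JMJD6 gene. The 6 samples were 3 replicates with an N-Myc antibody, from cells cross-linked with formaldehyde alone, and 3 replicates with a JMJD6 antibody, from cells cross-linked with disuccinimidyl glutarate (DSG) and then formaldehyde. Antibody and cross-linking therefore cannot be told apart in any contrast between the lists. The deposited lists held 10172 N-Myc peaks and 561 JMJD6 peaks common to the 3 replicates of each antibody. They give positions only. They hold no read depth, and the paper states only a minimum number of reads per sample. Each value is therefore 1 position shared by the replicates with no replicate spread, and no test was made. All cells were of 1 line, and the lists contain no RNA measurement.

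Mitosis is driven by kinases that are switched on in order. CDK1 with its partner cyclin B1, the product of CCNB1, starts entry into mitosis, PLK1 drives centrosome maturation and later steps, and AURKA, activated on the spindle by TPX2, acts at spindle poles. AURKB acts at centromeres and the midzone as the kinase of the chromosomal passenger complex. BUB1, BUB1B (BubR1) and MAD2L1 (Mad2) form the core of the spindle assembly checkpoint, which holds back CDC20, the activator of the anaphase-promoting complex (APC/C), until chromosomes are attached. Transcription of these genes peaks late in the cell cycle and is controlled through a short promoter element, the cell cycle genes homology region (CHR), usually with CCAAT boxes upstream, which are read by the DREAM and MuvB complexes and by NF-Y. N-Myc binds with MAX to the E-box, and the Aurora-A protein is known in neuroblastoma for stabilising N-Myc.

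The sequences below show the DNA at these start sites on GRCh37, because they differ in whether they hold the motif that N-Myc reads. Positions are counted from the start of the Ensembl canonical transcript in GENCODE, taken as 0, in the direction of transcription. The canonical E-box (CACGTG) is in capitals at the 3 promoters where it lay nearest to the start. The PLK1 site was inside the N-Myc peak at -198 to -193, in an exon of a PLK1 transcript that starts farther upstream, the BUB1B site was inside the peak but in an intron at 369 to 374, and the CCNB1 site was outside the peak at -196 to -191.
PLK1, chr16:23690000-23690029, plus strand: cccaggctatccCACGTGttcgggcgtccg
BUB1B, chr15:40453627-40453656, plus strand: gtggactgagggCACGTGcgaatcctgccg
CCNB1, chr5:68462769-68462798, plus strand: gcagaggcagacCACGTGagagcctggcca

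The CHR (TTTGAA or TTCGAA, either strand) was found between 250 bases before and 50 after the start in every one of the 10 genes except CCNB1. Capitals mark the CHR, with the site nearest to the start printed for 8 of these 9 genes. CDK1 held 3 sites in the window and CDC20 held 2.
AURKA, chr20:54967257-54967286, minus strand: aaaagaagaaccTTTGAAttctaacggctg
AURKB, chr17:8113915-8113944, minus strand: cggggcgggagaTTTGAAaagtccttggcc
PLK1, chr16:23690169-23690198, plus strand: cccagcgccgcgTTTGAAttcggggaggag
CDK1, chr10:62538211-62538240, plus strand: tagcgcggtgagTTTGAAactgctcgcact
BUB1, chr2:111435622-111435651, minus strand: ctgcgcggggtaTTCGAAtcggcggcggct
BUB1B, chr15:40453235-40453264, plus strand: gggaccgttaaaTTTGAAacttggcggcta
MAD2L1, chr4:120987962-120987991, minus strand: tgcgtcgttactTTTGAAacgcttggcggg
CDC20, chr1:43824575-43824604, plus strand: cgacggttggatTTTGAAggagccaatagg

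Longer stretches, ending at the base before the first start annotated within 1 kb of the canonical start, are shown for 2 promoters with an N-Myc peak (PLK1, CCNB1) and for 2 without one (AURKB, CDC20), to show that the CHR and the CCAAT box, both in capitals, were present in both kinds. The CCNB1 stretch holds CCAAT boxes and neither TTTGAA nor TTCGAA. Other forms of the CHR were not searched. ATTGG is a CCAAT box on the opposite strand.
PLK1, chr16:23690040-23690189, plus strand: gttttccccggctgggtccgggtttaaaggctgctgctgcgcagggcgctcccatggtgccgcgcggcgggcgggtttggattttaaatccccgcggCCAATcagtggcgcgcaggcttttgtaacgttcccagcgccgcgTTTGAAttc
CCNB1, chr5:68462812-68462961, plus strand: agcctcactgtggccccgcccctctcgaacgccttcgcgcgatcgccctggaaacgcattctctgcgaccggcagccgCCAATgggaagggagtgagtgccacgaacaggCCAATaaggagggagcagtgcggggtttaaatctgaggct
AURKB, chr17:8113919-8114068, minus strand: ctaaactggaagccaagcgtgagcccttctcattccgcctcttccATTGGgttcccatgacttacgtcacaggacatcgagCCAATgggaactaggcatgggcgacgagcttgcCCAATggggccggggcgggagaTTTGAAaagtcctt
CDC20, chr1:43824502-43824651, plus strand: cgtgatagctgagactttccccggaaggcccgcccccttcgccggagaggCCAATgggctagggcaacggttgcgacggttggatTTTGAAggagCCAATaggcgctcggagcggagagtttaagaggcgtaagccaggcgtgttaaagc

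N-Myc was listed at the promoters of 7 of the 10 genes, namely AURKA, PLK1, TPX2, CDK1, CCNB1, BUB1B and MAD2L1. Over all coding genes, 17.5% were named in the N-Myc promoter list, which holds windows of 1 kb on each side of a RefSeq start site that contain a peak in all 3 replicates. The same list named 39.3% of the 84 other genes with roles in mitosis that are described below. Of the 10 genes, those without a listed promoter were AURKB, BUB1 and CDC20. Thus CDK1 and CCNB1 were both listed, as were AURKA and TPX2, whereas the checkpoint genes were divided. The peak at the AURKA promoter was also at the listed promoter of the neighbouring gene CSTF1. JMJD6 was listed at the promoters of 0 of the 10 genes, against 0.626% of coding genes.

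**Figure D1:**
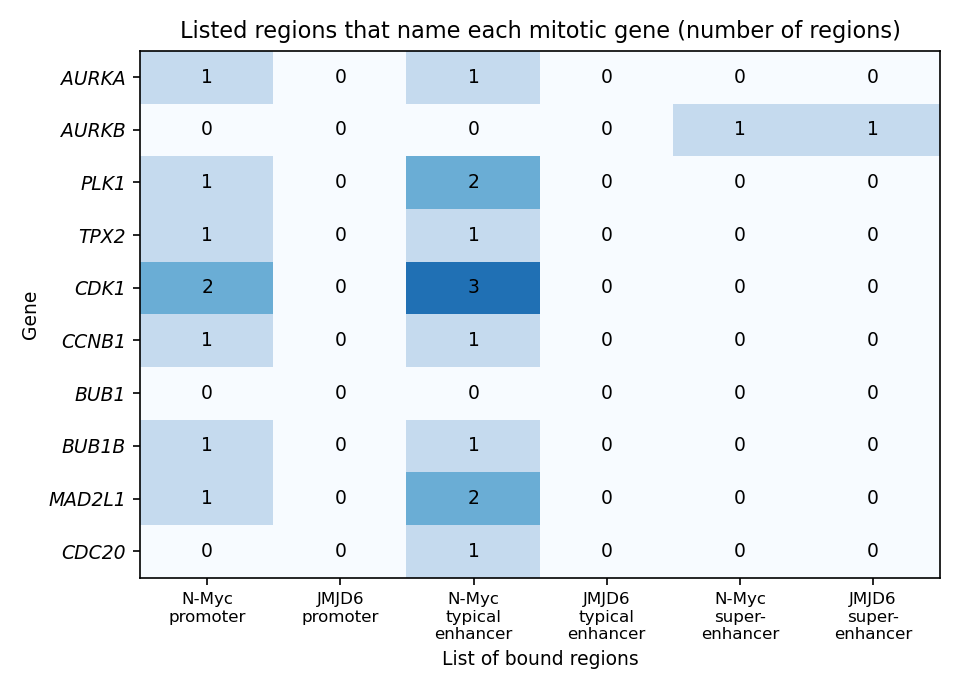
Number of listed regions (cells of the grid) that name each of the 10 genes (rows) in the N-Myc and JMJD6 lists of promoters, typical enhancers and super-enhancers (columns). The 7 genes with an N-Myc promoter also have at least 1 N-Myc typical enhancer, AURKB appears only under super-enhancers, and the BUB1 row is 0 throughout.

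Each of the 7 promoters held 1 N-Myc peak. At CDK1, which has 2 listed start sites, both promoters held the same peak. The AURKA peak (chr20:54967290-54967861, 572 bp) ran from -590 to -19 bp and ended just before the canonical start. It covered 3 of the 9 annotated AURKA starts, among them the start at 54967393 that the promoter list used, and its centre was in the untranslated region of CSTF1, a gene for a polyadenylation factor that runs the other way and whose promoter was also listed. The AURKA value therefore cannot be assigned to 1 of these 2 genes by position. The PLK1 peak (chr16:23689837-23690276, 440 bp) ran from -373 to 66. The TPX2 peak (chr20:30326750-30327242, 493 bp) ran from -343 to 149 and covered both of its 2 annotated starts. In all, 6 of the 7 peaks covered the canonical start, AURKA being the exception, and all 7 covered at least 1 annotated start of the gene.

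The CDK1 peak (chr10:62537794-62538322, 529 bp) ran from -442 to 86 and covered 6 of 8 annotated starts. The CCNB1 peak (chr5:68462817-68463208, 392 bp), the narrowest of the 7, ran from -160 to 231, with its centre in the 5' untranslated region. Among the checkpoint genes, the BUB1B peak (chr15:40452998-40453789, 792 bp) ran from -272 to 519 and the MAD2L1 peak (chr4:120987443-120988484, 1042 bp) from -481 to 560. These 2 checkpoint peaks were the widest and reached farthest into the transcribed part, while the centres of the AURKA, PLK1, TPX2 and CDK1 peaks lay at -305, -153, -97 and -178 bp.

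**Figure D2:**
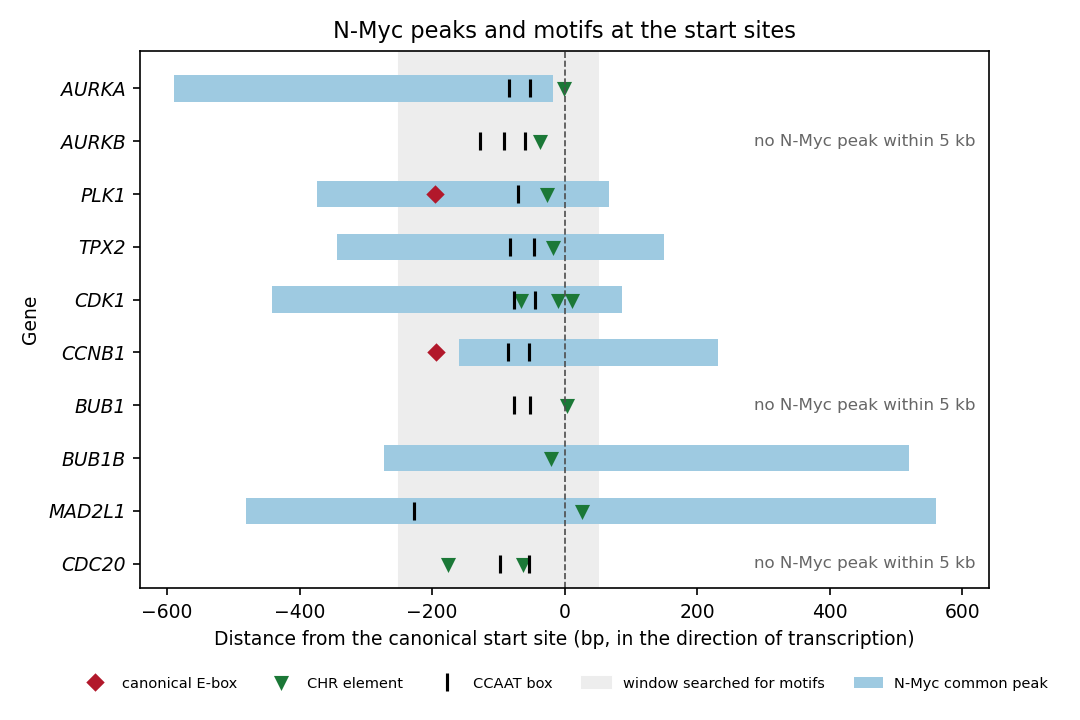
N-Myc peaks (blue bars) and matches to the canonical E-box, the CHR and CCAAT (symbols, searched in the grey window only) against distance in bp from the canonical start of each gene. The peaks of the 7 bound genes span or adjoin the start, and AURKB, BUB1 and CDC20 hold CHR and CCAAT matches with no N-Myc peak within 5 kb.

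Width is the only property of a peak that the lists give. The median of the 7 promoter peaks was 529 bp, against 452 bp over the 3550 N-Myc peaks at listed promoters, whose quartiles were 343 and 612 bp. MAD2L1 stood at percentile 96.5 of these peaks and BUB1B at percentile 89.2, both above the upper quartile. AURKA stood at percentile 70.3, CDK1 at 63.3, TPX2 at 57.7 and PLK1 at 47.5, and CCNB1, below the median, was also between the quartiles. The GC content of the 7 peaks ranged from 50.5% at CDK1 to 65.3% at CCNB1, with a median of 58.4% against 58.3% over all promoter peaks. Listed promoters on both strands shared a peak in 1 of the 7 cases (AURKA with CSTF1), against 22.0% of all promoter peaks.

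**Figure D3:**
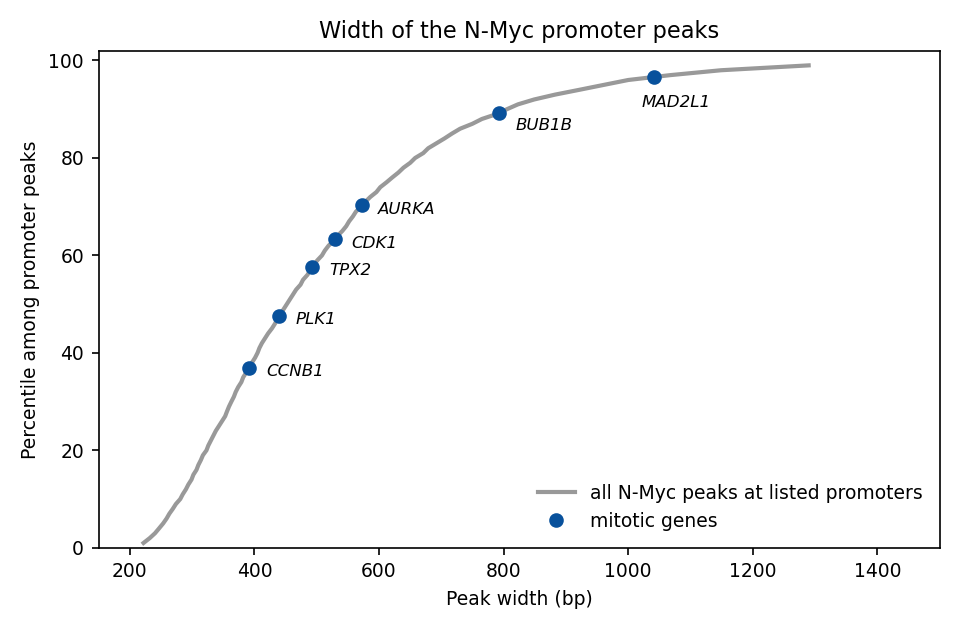
Percentile (vertical axis) against width in bp (horizontal axis) for the N-Myc peaks of the 7 bound mitotic genes (points) on the distribution of all 3550 N-Myc peaks at listed promoters (line). CCNB1 has the narrowest peak at 392 bp and MAD2L1 the widest at 1042 bp.

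The canonical E-box was present in the peaks of 2 of the 7 genes, PLK1 and BUB1B, each with 1 copy, while 36.9% of all N-Myc promoter peaks held it. Within 100 bp of the peak centre, a length that does not depend on peak width, it was held by PLK1 alone, 42 bp from the centre, against 23.1% of promoter peaks. The variant CACGCG was found in the MAD2L1 peak only, against 29.2% of promoter peaks. The looser pattern CANNTG, which includes CACGTG, was found in 6 of the 7 peaks and in 87.1% of all promoter peaks, and the CCNB1 peak held none. Within 100 bp of the peak centre CANNTG was found in 2 of the 7, against 63.9% of promoter peaks. MAD2L1 also had 2 canonical E-boxes in an intron, at 817 to 822 and 907 to 912, both outside its peak. A missing match says only that these letters were not in the window.

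Motifs were also counted in a window placed by the start and not by the peak, from 250 bases before to 50 after the canonical start. There the canonical E-box was held by 2 of the 10 genes, PLK1 and CCNB1, against 8.74% of 20132 coding genes. Among the 3525 coding genes with an N-Myc promoter the share was 15.7%. CACGCG was held by 0 of the 10 genes, against 15.1% of coding genes. The CHR was held by 9 of the 10 genes, against 12.9% of coding genes and 388 of the 3525 with an N-Myc promoter. The genes that held it included 6 of the 7 with an N-Myc promoter and all 3 without one. CCAAT was also held by 9 of the 10 genes, BUB1B being the exception, against 35.9% of coding genes, and both motifs together were held by 8 genes, against 5.43%. In the shorter window that starts 100 bases before the start, the CHR was held by 9 of the genes against 5.41% of coding genes, and CCAAT by 8 against 22.8%. The E2F motifs TTTCGCGC and TTTGGCGC were found at CDK1 only, at -128 to -121, against 1.53% of coding genes. Both strands were searched for each motif, and none of the motifs contains another apart from the E-box patterns.

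Positions of the CHR and CCAAT relative to the start varied among the genes with an N-Myc peak and did not separate them from those without one. The canonical E-box in the window was found at 2 of the 7 genes with an N-Myc promoter. It was not found there at AURKB, BUB1 or CDC20. At PLK1 the CCAAT box lay at -73 to -69 and the CHR at -29 to -24. AURKB, without an N-Myc peak, had 3 CCAAT boxes at -130 to -126, -94 to -90 and -61 to -57 and the CHR at -39 to -34. BUB1 had CCAAT boxes at -79 to -75 and -54 to -50 with the CHR at 1 to 6, and CDC20 had CCAAT boxes on each side of a CHR at -65 to -60. Among the other genes with an N-Myc peak, the CCAAT box nearest to the start lay at -54 to -50 at AURKA, -48 to -44 at TPX2, -55 to -51 at CCNB1 and -46 to -42 at CDK1. MAD2L1 differed, with its only CCAAT box at -229 to -225, and BUB1B had none in the window. Over the whole length of the peak, a CHR was held by 6 of the 7 N-Myc peaks, the CCNB1 peak being the exception, against 23.6% of all N-Myc promoter peaks. Within 100 bp of the peak centre it was held by 3 of the 7, against 9.66%. The AURKA site shown above, at -3 to 2, was just outside its peak, which held another CHR farther upstream.

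Typical enhancers bound by N-Myc named 8 of the 10 genes, against 31.9% of coding genes. They are regions marked by acetylated H3K27, each assigned to its nearest genes within 1000 kb, so a name in this list is an assignment by distance. Of the 12 typical enhancer entries, 8 held the start of the gene they named. The paper states that acetylated H3K27 peaks within 1 kb of start sites were removed before enhancers were called. How these 8 entries came to be in the list was not tested. In each of the 7 genes with an N-Myc promoter, 1 typical enhancer overlapped both the promoter and the promoter peak already described. Promoter and enhancer listings thus rested on the same N-Myc peak. Over all coding genes with an N-Myc promoter, 81.0% overlapped such an enhancer. These 7 regions were 603 bp (CCNB1) to 2830 bp (AURKA) long.

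The other 4 entries lay away from the start, and 3 of them are described here. PLK1 was assigned a region at chr16:23651738-23653731, where an N-Myc peak of 890 bp with 1 canonical E-box, 37.3 kb upstream, overlapped the listed promoters of DCTN5, a dynactin subunit, and PALB2, a partner of BRCA2 in DNA repair. CDK1 was assigned a peak of 461 bp in an intron of ANK3, 256 kb upstream, and a peak of 681 bp in an intron of RHOBTB1, 166 kb downstream, the latter at the listed RHOBTB1 promoter and with 1 canonical E-box. Of these 3 peaks, only the one in ANK3 was at no listed promoter. JMJD6-bound typical enhancers named 0 of the 10 genes, against 0.909% of coding genes.

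CDC20 was named by a single N-Myc typical enhancer of 20.5 kb (chr1:43813876-43834380) that contains the whole CDC20 gene. Its only N-Myc peak (chr1:43833987-43834240, 254 bp) lay 9.34 kb downstream of the CDC20 start, at the listed promoter of ELOVL1, a fatty acid elongase, and held no canonical E-box. No N-Myc peak lay within 5 kb of any annotated CDC20 start. The listing of CDC20 was thus carried by a peak at another gene's promoter.

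AURKB was listed through a super-enhancer and by no other region. N-Myc-bound super-enhancers named 1.31% of coding genes and JMJD6-bound super-enhancers 0.0745%, and AURKB, with TMEM107, was in both lists through 1 region of 85.1 kb (chr17:8042494-8127548). That region held 10 N-Myc peaks, the highest number among the 162 N-Myc-bound super-enhancers, whose median was 2, and 3 of the 162, this one included, were as long or longer. The AURKB gene (chr17:8108051-8113918, minus strand) lies inside the region, but 0 of the 10 peaks overlapped it. Of the peaks, 4 lay upstream of the AURKB start, the nearest of them (chr17:8123348-8123889, 542 bp) at 9.46 kb, and the other 6 lay downstream. Their widths ranged from 324 to 1358 bp with a median of 472.5 bp. A canonical E-box was held by 6 of the 10, against 36.9% of N-Myc peaks at listed promoters. No share over the peaks of super-enhancers is given, so E-boxes cannot be called frequent in this region. Listed N-Myc promoters were overlapped by 5 of the peaks, those of PER1, a circadian clock gene, MIR4521, BORCS6 and LINC00324. The single JMJD6 peak in the region, at the TMEM107 gene, was 36.8 kb downstream of the AURKB start and coincided with an N-Myc peak of 769 bp.

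BUB1, the kinase that recruits other checkpoint proteins to kinetochores, was named in no list. The nearest N-Myc peak, of 280 bp in an exon of MIR4435-2HG, lay 689 kb upstream, and 95.2% of coding genes had an N-Myc peak nearer to their start. The starts of the other 2 checkpoint genes, BUB1B and MAD2L1, lay inside N-Myc peaks.

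The distance to the nearest N-Myc peak was 0 for 6 of the 10 genes, 0.019 kb for AURKA, 9.34 kb for CDC20, 9.46 kb for AURKB and 689 kb for BUB1. Over all coding genes the median was 58.7 kb with quartiles of 9.73 and 185 kb, and an N-Myc peak covered the canonical start of 9.18%. For JMJD6 the median over the 10 genes was 2259 kb and over all coding genes 2535 kb. AURKB (36.8 kb) and TPX2 (156 kb) had the nearest JMJD6 peaks, and 2.44% and 7.86% of coding genes had a nearer one. The farthest was that of AURKA at 9078 kb. The 2 sets of distances rest on lists of 561 and 10172 peaks.

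**Figure D4:**
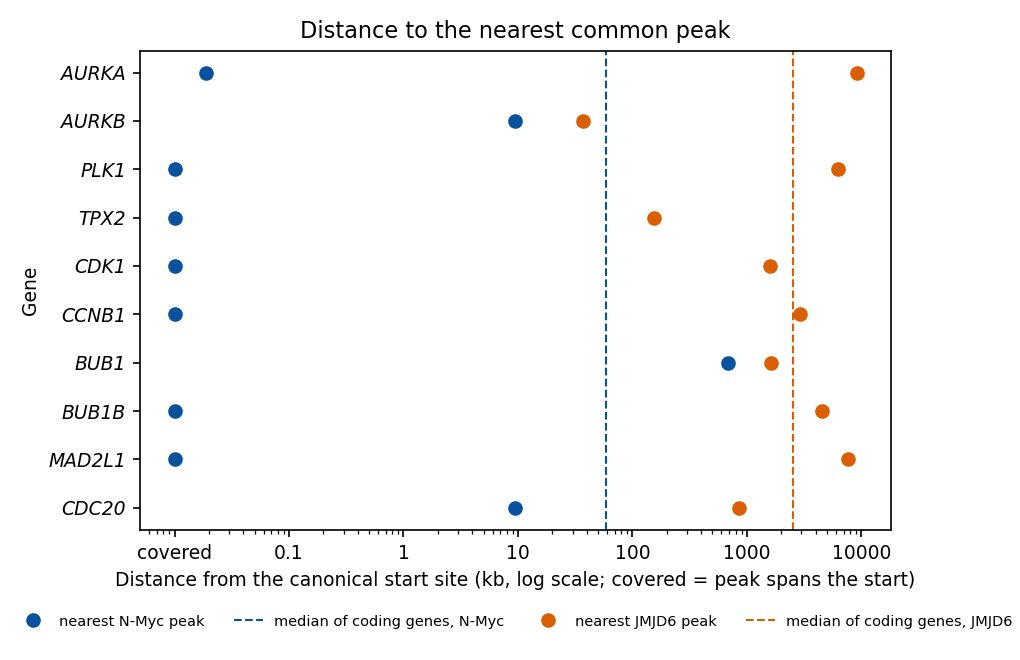
Distance in kb on a log axis from the canonical start of each gene to the nearest N-Myc peak (blue) and the nearest JMJD6 peak (orange), with the medians of all coding genes as dashed lines; points at the left edge mark starts covered by a peak. N-Myc peaks cover 6 of the starts, BUB1 lies beyond the N-Myc median of 58.7 kb, and the JMJD6 distances spread around 2535 kb.

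Of 84 other genes with roles in mitosis, 33 had an N-Myc promoter (39.3%), against 17.5% of coding genes. N-Myc typical enhancers named 32 of the 84, against 31.9% of coding genes, and N-Myc super-enhancers named 1, against 1.31%. JMJD6 lists named 0, and 43 were in none of the 6 N-Myc and JMJD6 lists, against 62.7% of coding genes. By role, an N-Myc promoter was listed for 4 of 13 genes of mitotic entry, 3 of 5 partners of the Aurora kinases, 7 of 18 checkpoint and kinetochore genes, 10 of 23 genes of the APC/C and anaphase, 6 of 16 spindle and cytokinesis genes and 3 of 9 genes of DREAM and MuvB. The widest promoter peaks among the entry genes were at CKS1B (963 bp) and CKS2 (664 bp), small subunits that bind cyclin-dependent kinases. Among Aurora partners they were at the passenger complex genes CDCA8 (672 bp) and INCENP (610 bp). For the checkpoint and kinetochore they were at MAD2L1BP (1151 bp), whose product binds Mad2, and KNTC1 (941 bp), a kinetochore protein of the RZZ complex.

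In the APC/C group the widest were at ANAPC13 (942 bp) and ANAPC15 (873 bp), both APC/C subunits, and among spindle genes at KIF20A (712 bp), a cytokinesis kinesin, and NEK2 (572 bp), a centrosomal kinase. Among genes of DREAM and MuvB they were at RBL1 (579 bp), which encodes p107, and LIN52 (437 bp). Of the 33 listed promoters, 32 held a common N-Myc peak and 11 had a peak with the canonical E-box, and their median widest peak was 523 bp. Counted by peak, 36.9% of all N-Myc promoter peaks held this E-box. The promoter without a common peak was that of HMMR, and the gene named by a super-enhancer was RBL2; both are named because of these values. Over the whole N-Myc promoter list, 2.56% of entries held no common peak. The CHR was found in the promoter windows of 49 of the 84 genes (58.3%) and CCAAT in 53 (63.1%).

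**Figure D5:**
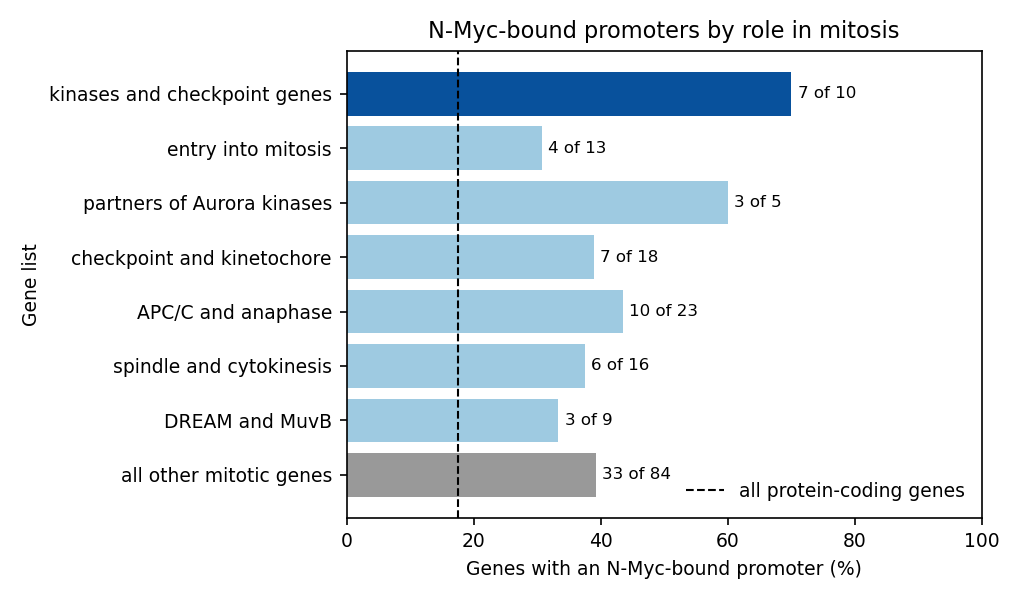
Percentage of genes with an N-Myc-bound promoter (bars from 0) in the 10 kinases and checkpoint genes and in 6 role groups of other mitotic genes, with counts beside the bars and all protein-coding genes as the dashed line at 17.5%. The 10 genes stand at 7 of 10, the other mitotic genes at 33 of 84.

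The pattern of the 7 promoter-bound genes over the 6 N-Myc and JMJD6 lists, N-Myc promoter and N-Myc typical enhancer and nothing else, was shared by 2423 other coding genes. CDC20 shared its pattern with 3670 others and BUB1, in no list, with 12618. The AURKB pattern, both super-enhancer lists with no promoter or typical enhancer, was shared by 1 other gene.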

How the data were processed

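CHP-134 cells were profiled by ChIP-seq with N-Myc or JMJD6 antibodies, 3 replicates each, which formed the 2 groups. The authors aligned reads to hg19 with BWA, called peaks against input with MACS2 2.1.1.20160309, kept peaks common to the 3 replicates, and defined typical enhancers and super-enhancers with ROSE from acetylated H3K27. The 12 deposited lists give positions and gene names without a score or count. The depth of each sample is therefore unknown beyond the minimum number of reads that the paper states.

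Start sites and genes were taken from GENCODE release 44 lifted to GRCh37, the build of the lists; 87.7% of listed N-Myc promoters with an annotated symbol centred within 100 bp of an annotated start of that gene. Older symbols were matched through RefSeq synonyms (3958 of 4150 symbols of the N-Myc promoter list). Overlap meant at least 1 bp. Coordinates are 1-based. Python 3.11.15, numpy 2.4.6, pysam 0.24.0 and matplotlib 3.10.9 were used, and overlap and motif searches were tested on simulated data. Motif shares in windows used 20132 coding genes with complete sequence. RefSeq promoter sequences on GRCh38.p14 covered 8 of the 10 genes and served as an alternative only.

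The genes, role lists, motifs and alternatives were chosen with earlier results of these data known. Named were all 10 genes, any other mitotic gene in a JMJD6 list, the 2 genes of each role with the widest N-Myc promoter peak, and neighbours sharing a region or peak. Some items under this rule are not reported here. No test was made, because the lists hold no values per replicate.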

Additional observations from a re-analysis of the deposited data

How the results depend on the processing

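The number of genes with an N-Myc promoter stayed at 7 when a common peak was required to cover an annotated start or to lie within 1, 2 or 5 kb of one, and when at least 50% of the peak had to lie in the promoter, and was 6 when the peak had to reach the median N-Myc width of 418 bp. The JMJD6 count was 0 within 1 and 5 kb. The count of genes named by an N-Myc typical enhancer stayed at 8 with an overlapping common peak required. It was also 8 for enhancers within 100 kb of a start, and fell to 2 when enhancers overlapping an N-Myc promoter were left out. The E-box count, 2 of 7 in whole peaks, was 1 within 100 bp of the peak centre, 4 within 1 kb of the start, 3 with CACGCG added and 6 with CANNTG. The share of coding genes with an N-Myc promoter, 17.5%, was 6.35% over all annotated symbols, 39.3% over the other mitotic genes, and 20.8% by common peaks within 1 kb of a start. The median width was 529 bp for the peak nearest to the start too. Alternatives chosen after seeing the data gave a CHR in 8 genes with TTTGAA alone and 9 in the shorter window, and CCAAT in 8 in the shorter window. In the RefSeq promoter sequences the CHR was in 6 of the 8 genes, against 19.5% of 27305 symbols. CCAAT was in 7 of the 8, against 39.7%. For TTTGAA alone, the E-box within 1 kb and enhancers overlapping no N-Myc promoter, no share over coding genes is given. No replicate could be left out, and no value can be given per replicate. No paired analysis was possible because the lists are common to all replicates and hold no values per sample. Without peak height or the depth of each sample, a gene that is not listed cannot be called unbound.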
